A study of Homo sapiens with 10 samples.

Results

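KDM1A (also called LSD1), its paralog KDM1B and subunits of the CoREST complexes that hold KDM1A were followed across 5 groups of H1 cells. The 10 members are KDM1A, KDM1B, RCOR1, RCOR2, RCOR3, HDAC1, HDAC2, PHF21A, HMG20B and ZMYM2. Each was taken as the row of the expression table that carries exactly that gene symbol. All 10 were found, among 13808 gene rows of a table with 14785 rows. The remaining 977 rows are transposable element or transfer RNA rows. All 10 members also had a mean of at least 10 over the libraries, so none was removed by the filter on low values.

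H1 is an established human embryonic stem cell line, labelled here with a wild-type genotype. Every group, the control included, was exposed to packaged short hairpin RNA (shRNA) virus and then selected with puromycin. The hairpins targeted luciferase (shLUC, the control), KDM1A (shKDM1A), SMARCA4, an ATPase of chromatin remodellers (shSMARCA4), MAFK, a small MAF transcription factor (shMAFK), or E2F6, a repressive E2F factor (shE2F6). The study addressed regulators of chromosome folding around transposable elements, and RNA-seq was 1 of its readouts. There were 2 libraries per group, 10 in all, called biological duplicates by the submitters. The labels do not say that the 2 came from separate infections, so the p-values measure only the spread between these libraries. The hairpin sequences, and how many hairpins were used for each target, are not given in the sources used here. In bulk RNA, fewer cells with a transcript and less transcript per cell cannot be told apart.

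KDM1A is a flavin-dependent demethylase that removes methyl groups from mono- and dimethylated lysine 4 of histone H3. It works well on nucleosomes only when held by a CoREST protein (RCOR1, RCOR2 or RCOR3), which also binds the deacetylases HDAC1 and HDAC2, so that 1 complex can erase acetyl and methyl marks. Transcription factors such as REST bring the complex to DNA, and in pluripotent cells it is known for holding down differentiation genes.

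Values are taken to be normalized tag counts. The libraries had nearly the same totals, between 22836548 and 22855295, and the median was 594 in every library. How the submitters normalized them is not given in the sources used here, so the depth of each library is unknown. All 12 pluripotency markers checked, POU5F1, SOX2 and NANOG among them, were present and above 0 in every group. Their summed value was 191045 to 200406 in shLUC and 196463 to 287978 in shKDM1A, where POU5F1 had 148866 in replicate 1 and 35710 in replicate 2. Without POU5F1 the other 11 summed to 155335 and 164696 in shLUC and to 139112 and 160753 in shKDM1A. In shSMARCA4 the 12 summed to 163987 to 186604 and the 11 to 134920 and 142679, both below shLUC. SOX2 had 4426 and 4748 there against 6408 and 6928 in shLUC, while NANOG had 4613 and 3699 against 2512 and 2639. The 12 summed to 198791 to 216531 in shMAFK and to 182566 to 197521 in shE2F6. The 2 shKDM1A libraries were farther apart than those of any other group, with a root mean square SD over all rows of 0.53 on the log2 scale against 0.275 in shLUC. Over the 9 members other than KDM1A that SD was 0.149 in shKDM1A, 0.112 in shLUC, 0.163 in shMAFK, 0.183 in shE2F6 and 0.242 in shSMARCA4, so for them shKDM1A was not the group with the widest spread. A log2 change is the difference of group means of log2(value + 1). Tests are from limma over all 14785 rows with the 5 groups in 1 fit, and adjusted p-values are Benjamini-Hochberg values over all rows with a threshold of 0.05. The 4 comparisons with shLUC share its 2 libraries.

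The members hold 5 pairs of paralogs, so the sequences they share matter for telling their reads apart and for what a hairpin could match. In the spliced transcripts annotated in GENCODE 29, KDM1A and KDM1B shared 0 stretches of 19 bases. The same count was 0 for HDAC1 with HDAC2, for RCOR1 with RCOR2 and for RCOR2 with RCOR3, and 2 for RCOR1 with RCOR3. No pair shared a stretch of 21 or of 50 bases. The longest run that each of 3 pairs shares in its coding sequence is shown here with up to 15 bases on either side, read 5′ to 3′ along the transcript, and capitals mark the bases that differ between the 2 paralogs. KDM1A and KDM1B had at most 10 identical bases in a row.
KDM1A: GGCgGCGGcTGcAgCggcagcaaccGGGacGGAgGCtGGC
KDM1B: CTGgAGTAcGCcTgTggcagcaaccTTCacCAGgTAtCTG
RCOR1: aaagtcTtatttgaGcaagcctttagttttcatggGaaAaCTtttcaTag
RCOR3: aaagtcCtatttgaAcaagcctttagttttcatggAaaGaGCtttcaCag
HDAC1: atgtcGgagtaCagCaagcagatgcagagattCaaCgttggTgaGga
HDAC2: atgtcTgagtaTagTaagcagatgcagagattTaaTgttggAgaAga

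On GRCh38, the KDM1A stretch lies at chr1:23019629-23019668 on the plus strand in exon 1, and the KDM1B stretch at chr6:18205632-18207404, plus strand, across exons 15 and 16. They differ at 22 of 40 positions. The stretch of RCOR1 is in exon 5 at chr14:102707450-102707499 and that of RCOR3 in its exon 5 at chr1:211276356-211276405, both on the plus strand, with 20 identical bases in a row and 7 differences in 50 positions. HDAC1 and HDAC2 share 17 bases in a row, with 7 differences in 47 positions, in exons 3 and 4 of each gene (chr1:32316752-32324494, plus strand, and chr6:113956678-113958679, minus strand). These coordinates span the intron where a stretch crosses 2 exons. None of the 10 members overlaps another gene of the annotation in its exons.

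**Figure D1:**
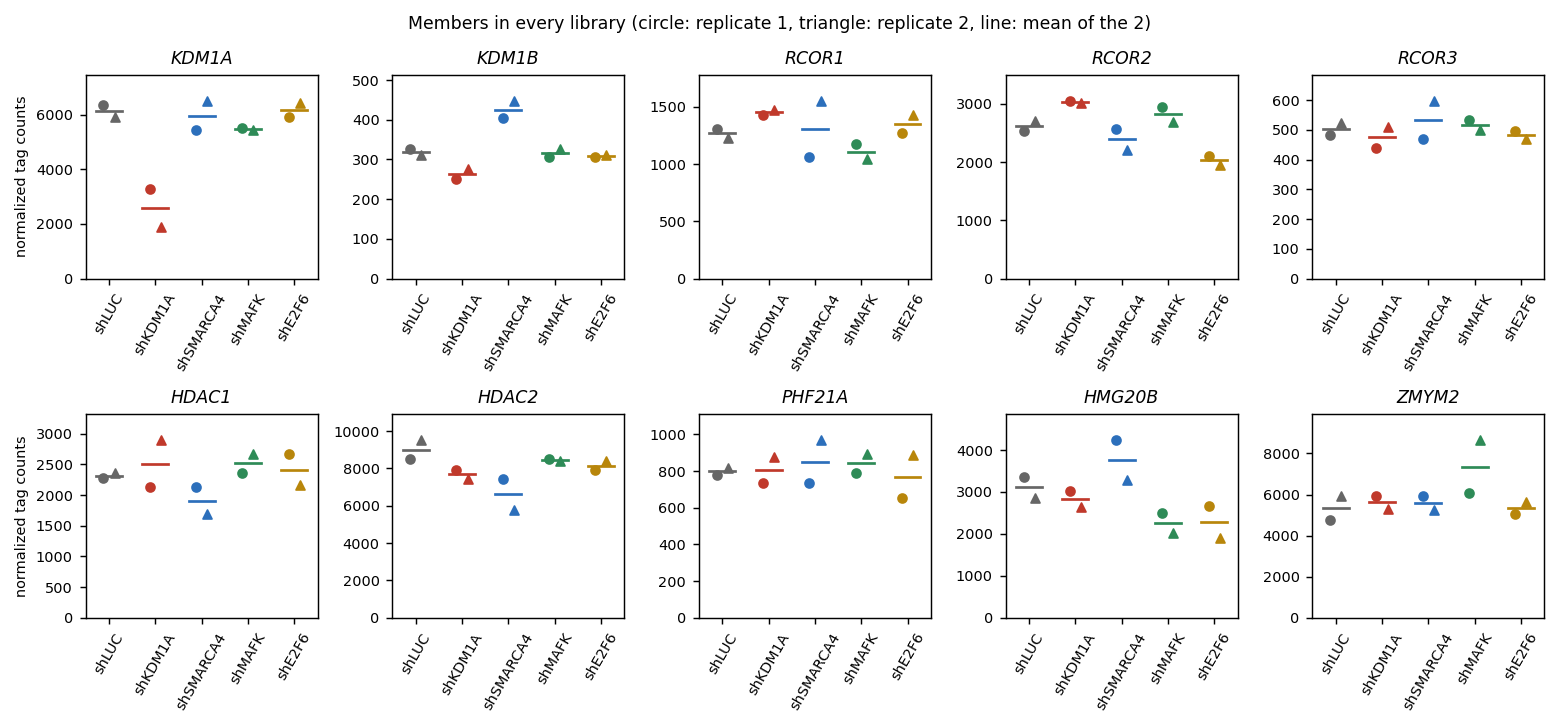
Each panel shows 1 member, with normalized tag counts on a linear axis from 0 and the 5 groups along the bottom. Circles are replicate 1, triangles replicate 2 and lines the mean of the 2; KDM1A is low in the 2 shKDM1A libraries (3290 and 1879), while the other 9 members range from 1.36-fold (RCOR3) to 2.23-fold (HMG20B) between the lowest and highest library.

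The demethylases come first. KDM1A (ENSG00000004487, chr1:23019443-23083689, plus strand) had 6344 and 5925 normalized tag counts in the shLUC libraries and 3290 and 1879 in the shKDM1A libraries. It had 5421 and 6492 in shSMARCA4, 5500 and 5421 in shMAFK, and 5925 and 6410 in shE2F6. Both shKDM1A libraries were therefore below all 8 others, whose range was 5421 to 6492. The mean in shKDM1A was 2584.5 ± 998 (SD, n = 2), 42.1% of the shLUC mean of 6134.5 ± 296 (SD, n = 2). The spread of KDM1A within shKDM1A was wide, because replicate 1 kept more of the transcript than replicate 2.

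Against shLUC the log2 change of KDM1A was -1.30 (SE 0.24, 95% confidence interval -1.84 to -0.77), and it did not pass the threshold over all rows (limma, adjusted p = 0.132). It ranked 42nd of 14785 rows by p-value and 142nd among the falls by size. Only 4 rows passed in that comparison (0.0271% of rows). Without shKDM1A replicate 1 the change was -1.71, and without replicate 2 it was -0.90, so the size depended on the library. Each of these 2 fits leaves 1 library in the shKDM1A arm. A single library in that arm is assumed to vary like the other groups.

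KDM1A fell in the comparison of shKDM1A with the mean of the other 3 knockdowns, which uses no shLUC library in the contrast. The log2 change there was -1.23 (SE 0.19, limma adjusted p = 0.0401), and 0.649% of all rows passed. In the F-test over the 5 groups KDM1A also passed (F = 11.2, limma adjusted p = 0.0372), as did 5.07% of rows. An exact permutation test of the 2 shKDM1A libraries against the 8 others gave a log2 difference of -1.25 and a two-sided p = 0.0444. That is the smallest p that 2 against 8 can give. Any row with both shKDM1A libraries above or both below the 8 others reaches it, and 6.89% of all rows did. The call against the other knockdowns was lost with a separate weight for each group (adjusted p = 0.418), with the replicate number as a block (adjusted p = 0.0519) and when any 1 of the 8 libraries of other groups was left out (adjusted p from 0.0787 to 0.103). The F-test call was also lost without any 1 of those 8 (adjusted p from 0.0817 to 0.102).

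KDM1A did not pass in any other knockdown against shLUC. Its log2 changes were -0.05 in shSMARCA4, -0.17 in shMAFK and 0.01 in shE2F6, each with an SE of 0.24 and limma adjusted p-values of 0.965, 0.958 and 1.

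KDM1B (LSD2, ENSG00000165097, chr6:18155329-18223853, plus strand) is the only close paralog of KDM1A among human demethylases, and it acts outside CoREST, largely on transcribed gene bodies. It had 326 and 311 normalized tag counts in shLUC and 250 and 276 in shKDM1A, the 2 lowest of the 10 libraries. It had 404 and 447 in shSMARCA4, the 2 highest. The remaining groups stayed near the control, with 307 and 326 in shMAFK and 307 and 312 in shE2F6.

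The differences of KDM1B did not pass the threshold. Its log2 change was -0.28 in shKDM1A (95% confidence interval -0.60 to 0.05, limma adjusted p = 0.474) and 0.42 in shSMARCA4 (0.09 to 0.74, adjusted p = 0.181). Against the other 3 knockdowns it was -0.40 in shKDM1A (SE 0.12, limma adjusted p = 0.158), a contrast that includes the high shSMARCA4 libraries. The F-test over 5 groups gave a limma adjusted p of 0.115. Without shKDM1A replicate 2, KDM1B passed in the F-test (adjusted p = 0.0332) and against the other knockdowns (adjusted p = 0.0321). In that fit 4673 and 4448 rows passed, against 750 and 96 with all libraries.

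Per kilobase of annotated exon, KDM1A stood far above KDM1B in every library. The ratio of the 2 levels was 28.6 and 28.0 in shLUC, and 19.4 and 10.02 in shKDM1A. In shSMARCA4, where KDM1B was highest, it was 19.7 and 21.4. Elsewhere it lay between 24.5 and 30.2. Even in the shKDM1A libraries, KDM1A made up 95.1% and 90.9% of the summed level of the 2 demethylases. These ratios assume that the deposited values were not already divided by length, which no source used here states.

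The CoREST scaffolds, which bridge KDM1A to the nucleosome and to the deacetylases, showed small differences. RCOR1 (ENSG00000089902, chr14:102592661-102730576, plus strand) is the CoREST protein first found with REST. It had 1306 and 1232 normalized tag counts in shLUC, 1432 and 1472 in shKDM1A, 1063 and 1550 in shSMARCA4, 1173 and 1046 in shMAFK, and 1275 and 1428 in shE2F6. The shKDM1A libraries lay above both control libraries and the shMAFK libraries below them, while those of shSMARCA4 spanned the control. The log2 changes were 0.19 in shKDM1A and -0.20 in shMAFK (SE 0.19 each), with limma adjusted p-values of 0.671 and 0.893.

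RCOR2 (ENSG00000167771, chr11:63911221-63916844, minus strand) is the scaffold most associated with embryonic stem cells and neural progenitors. In shLUC it had 2530 and 2702 normalized tag counts. It had 3046 and 3008 in shKDM1A, 2576 and 2215 in shSMARCA4, 2953 and 2690 in shMAFK, and 2112 and 1951 in shE2F6. The shKDM1A libraries were the 2 highest of the 10 and the shE2F6 libraries the 2 lowest. Against shLUC its log2 change was 0.21 in shKDM1A (95% confidence interval -0.12 to 0.55, limma adjusted p = 0.559) and -0.37 in shE2F6 (-0.70 to -0.03, adjusted p = 0.956). Neither passed, nor did the difference between shKDM1A and the other 3 knockdowns (0.34, SE 0.12, limma adjusted p = 0.201).

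RCOR3 (ENSG00000117625, chr1:211258377-211316385, plus strand), the scaffold known to support demethylation by KDM1A least, moved least of the 3. Its values ran from 440 in shKDM1A replicate 1 to 597 in shSMARCA4 replicate 2, a 1.36-fold range. The shLUC libraries had 484 and 524. All 4 knockdowns overlapped the control, with log2 changes from -0.09 to 0.07.

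RCOR2 was the main scaffold transcript in every library. It held 68.7% to 78.6% of the summed RCOR level per kilobase, and RCOR1 held 13.8% to 22.8%. The RCOR2 share was 75.0% and 76.5% in shLUC and 77.7% and 76.4% in shKDM1A, and the 2 lowest shares were in shSMARCA4 replicate 2 and shE2F6 replicate 2. The level of KDM1A over the 3 scaffolds together was 1.57 and 1.40 in shLUC, and 0.698 and 0.397 in shKDM1A. It lay between 1.22 and 1.88 in the 8 libraries of other groups, so the shKDM1A libraries had less KDM1A than scaffold transcript and all others had more. With the length of the longest coding transcript in place of the union of exons, the shLUC mean of this ratio was 1.49 and not 1.48.

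**Figure D2:**
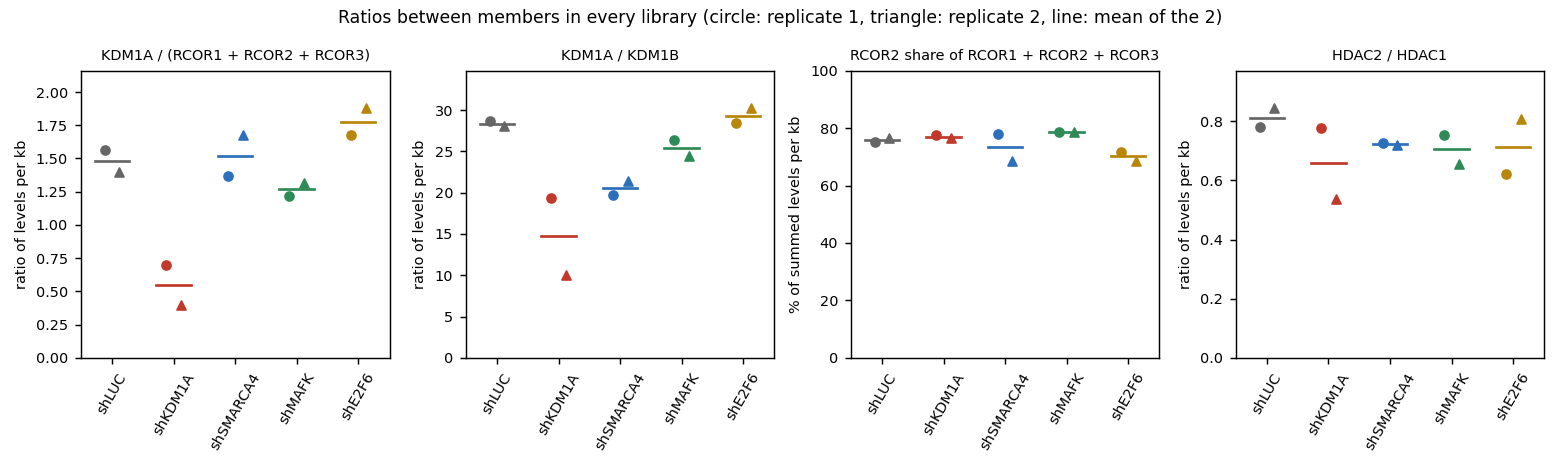
The panels show KDM1A over the summed RCOR levels, KDM1A over KDM1B, the RCOR2 share of the RCOR levels in percent, and HDAC2 over HDAC1, all from levels per kilobase, with axes from 0. Levels per kilobase assume that the deposited values were not already divided by length. Circles are replicate 1, triangles replicate 2 and lines the mean; the 2 shKDM1A libraries (0.698 and 0.397) lie below all others in the first panel, and the RCOR2 share stays between 68.7% and 78.6%.

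The deacetylases HDAC1 and HDAC2 remove acetyl groups from histone tails and are shared with the NuRD and SIN3 complexes. HDAC1 (ENSG00000116478, chr1:32292086-32333635, plus strand) had 2282 and 2354 normalized tag counts in shLUC, 2130 and 2891 in shKDM1A, 2138 and 1686 in shSMARCA4, 2354 and 2677 in shMAFK, and 2664 and 2170 in shE2F6. Only the shSMARCA4 libraries did not overlap the control. Their log2 change was -0.29 (SE 0.20, limma adjusted p = 0.568).

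HDAC2 (ENSG00000196591, chr6:113933028-114011308, minus strand) had 8496 and 9502 normalized tag counts in shLUC, 7917 and 7440 in shKDM1A, 7440 and 5788 in shSMARCA4, 8496 and 8374 in shMAFK, and 7917 and 8374 in shE2F6. No knockdown library exceeded the lower control library. The log2 change was -0.45 in shSMARCA4 (95% confidence interval -0.80 to -0.11, limma adjusted p = 0.168) and -0.23 in shKDM1A (adjusted p = 0.547). At this height the table holds few distinct values: the 10 libraries of HDAC2 took 6 distinct values, and the next value up was as much as 0.04 away on the log2 scale. Per kilobase, HDAC2 over HDAC1 was 0.539 to 0.845 in the 10 libraries, lowest in shKDM1A replicate 2. That ratio rests on an exon length of 10147 for HDAC2 and 2124 for HDAC1, and on values not already divided by length. As deposited, HDAC2 was above HDAC1 in every library.

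The remaining 3 members read or bind chromatin within the complex. PHF21A (BHC80, ENSG00000135365, chr11:45929323-46121178, minus strand) recognises histone H3 that carries no methyl group on lysine 4, the product of KDM1A. Its shLUC libraries had 780 and 818 normalized tag counts and its shKDM1A libraries 733 and 876. It had 736 and 967 in shSMARCA4, 791 and 894 in shMAFK, and 651 and 887 in shE2F6. Every knockdown overlapped the control, and the log2 changes lay between -0.07 and 0.08. Replicate 2 was the higher library in 5 of 5 groups.

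HMG20B (BRAF35, ENSG00000064961, chr19:3572777-3579088, plus strand) is an HMG-box subunit that binds DNA without strong sequence preference. In shLUC it had 3366 and 2851 normalized tag counts, and in shKDM1A 3026 and 2638. The shSMARCA4 libraries had 4228 and 3276, those of shMAFK 2505 and 2022, and those of shE2F6 2666 and 1898. Both of the latter groups lay below the control, each with a log2 change of -0.46 (SE 0.22) that did not pass (limma adjusted p = 0.619 in shMAFK and 0.987 in shE2F6). Replicate 2 was the lower library in 5 of 5 groups. The F-test over 5 groups gave F = 4.02 (limma adjusted p = 0.206), and F = 10.1 (adjusted p = 0.0575) with the replicate number as a block.

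ZMYM2 (ZNF198, ENSG00000121741, chr13:19958670-20091829, plus strand) is an MYM-type zinc finger protein that binds the KDM1A-CoREST-HDAC core and SUMO. Its values were 4750 and 5925 in shLUC, 5925 and 5302 in shKDM1A, 5925 and 5237 in shSMARCA4, 6078 and 8630 in shMAFK, and 5028 and 5628 in shE2F6. The shMAFK libraries were the 2 highest of the 10, but far apart. The log2 change in shMAFK was 0.45 (SE 0.20, limma adjusted p = 0.570).

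**Figure D3:**
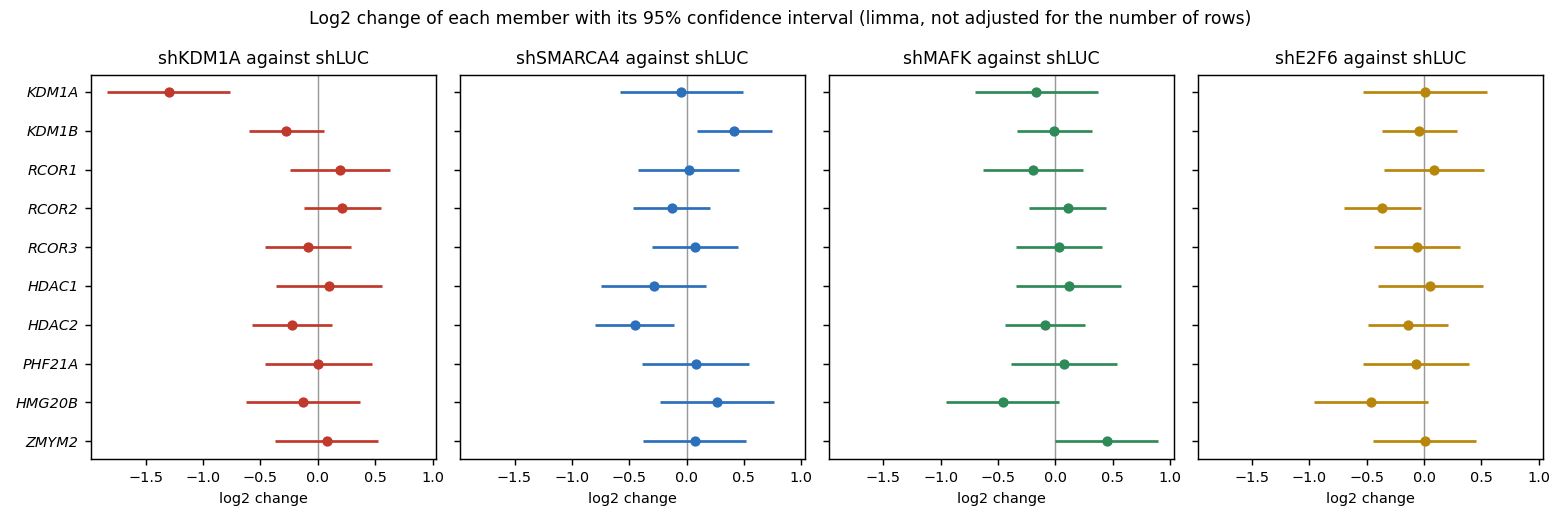
Each panel is 1 knockdown against shLUC, with the log2 change of each member as a point and its 95% confidence interval from limma as a line, not adjusted for the number of rows. KDM1A in shKDM1A (-1.30, interval -1.84 to -0.77) is the only member with a change larger than 0.5 in either direction.

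Over the 10 members, 0 passed in each of the 4 comparisons with shLUC by limma. The share of all rows that passed was 0.0271% in shKDM1A, 4.18% in shSMARCA4, 0.0135% in shMAFK and 0% in shE2F6. At an unadjusted p under 0.05 there was 1 member in shKDM1A (KDM1A, with 11.5% of all rows), and 2 in shSMARCA4 (KDM1B and HDAC2, with 16.3% of rows). There was 1 in shMAFK (ZMYM2, with 8.77% of rows) and 1 in shE2F6 (RCOR2, with 5.09% of rows). The comparison with the other 3 knockdowns had 3 such members (KDM1A, KDM1B and RCOR2, with 18.9% of rows), and the F-test had 4 (KDM1A, KDM1B, RCOR2 and HMG20B, with 21.1% of rows). In the 4 comparisons with shLUC, 1 or 2 of 10 members is near the share of all rows.

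Libraries that do not overlap were counted as well. Both libraries lay on 1 side of both shLUC libraries for 5 members in shKDM1A, where 38.8% of all rows did so. The count was 3 in shSMARCA4 (51% of rows), 4 in shMAFK (49.1%) and 3 in shE2F6 (40.7%). Both libraries lay outside the range of all 8 others for 3 members in shKDM1A, namely KDM1A and KDM1B below and RCOR2 above (6.89% of rows). That held for KDM1B alone in shSMARCA4 (17% of rows), ZMYM2 alone in shMAFK (9.94%) and RCOR2 alone in shE2F6 (5.99%). The median size of the members' log2 changes was 0.16 in shKDM1A, 0.10 in shSMARCA4, 0.11 in shMAFK and 0.07 in shE2F6. Over all rows it was 0.23, 0.21, 0.17 and 0.16.

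Per kilobase, and again only if the deposited values were not already divided by length, the members' control levels spanned more than 1 order of magnitude. In shLUC (mean ± SD, n = 2, normalized tag counts per kilobase) KDM1A was at 1961 ± 94.7 and HMG20B at 1948 ± 228, and their libraries overlapped. Next were HDAC1 at 1091 ± 23.97, RCOR2 at 1005 ± 46.7 and HDAC2 at 887 ± 70.1. ZMYM2 was at 521 ± 81.1, RCOR1 at 221 ± 9.09 and PHF21A at 208 ± 6.999. RCOR3 at 100.2 ± 5.62 and KDM1B at 69.2 ± 2.30 were the lowest. In shKDM1A the mean level of KDM1A was 826 ± 319, below the mean levels of HMG20B, HDAC1 and RCOR2 in that group. As deposited, without division by length, the order differs: HDAC2 (8999) is above KDM1A (6134.5) in shLUC, and KDM1A (2584.5) is above HDAC1 (2510.5) in shKDM1A.

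The genes whose values over the 10 libraries were most like those of KDM1A were AGAP1 (Pearson r = 0.900), WNT5A (0.893), MYRIP (0.880), IQCE (0.877) and FNDC4 (0.852). The points share the 2 shKDM1A libraries and the common normalization, and the coefficients are a description with no test. Without the shKDM1A libraries they were 0.615, 0.354, 0.0816, 0.401 and 0.107. Among the other members the coefficient ran from -0.629 (RCOR2) to 0.568 (KDM1B). Without the shKDM1A libraries it ran from -0.684 (RCOR2) to 0.943 (RCOR1), and KDM1B was at 0.148. With all libraries RCOR1 was at -0.309, so the order of the members depended on the shKDM1A libraries.

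Genes around the complex were then counted from 5 lists. Against shLUC, the share of all rows that passed was 0.0271% in shKDM1A, 4.18% in shSMARCA4, 0.0135% in shMAFK and 0% in shE2F6. Against the other 3 knockdowns it was 0.649%. A count of 0 in a short list is near these shares. Of 23 other CoREST partners and recruiters, 16 were in the table and 0 passed in any of the 5 pairwise comparisons by limma. In shKDM1A their median log2 change was -0.02, the same as over all rows (-0.02). REST, which recruits CoREST to neuronal genes, had 1052 and 1600 in shLUC and 1066 and 1513 in shKDM1A (log2 change -0.03). ZMYM3, the paralog of ZMYM2, had 2830 and 2794 in shLUC and 1998 and 2677 in shKDM1A (log2 change -0.28).

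The smallest p-values of that list in shKDM1A belonged to RREB1, a zinc finger factor (0.41), the histone chaperone RBBP4 (-0.35) and ZNF516 (0.38), with limma adjusted p-values of 0.447, 0.486 and 0.535. ZNF516 had 1028 and 1330 in shLUC and 1972 and 1181 in shKDM1A. PHF21B, the paralog of PHF21A, had 514 and 688 in shLUC and 852 and 914 in shMAFK (log2 change 0.57, limma adjusted p = 0.667). CTBP1, a corepressor, had 3430 and 3902 in shLUC and 3110 and 1922 in shE2F6 (-0.58, limma adjusted p = 0.977). ZNF217, GSE1, CTBP2, WIZ, RBBP7, MIER1, MIER2 and MIER3 had log2 changes between -0.25 and 0.28 in shKDM1A.

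No gene passed from the complexes that share HDAC1 and HDAC2 or from the enzymes of the same histone mark. Few rows of the whole table passed either, by the shares given above. Of 21 NuRD and SIN3 subunits in the table, 0 passed in any pairwise comparison, and their median log2 change in shKDM1A was -0.06. Their smallest p-values in shKDM1A belonged to BRMS1 (-0.41), SAP30 (1.21) and MTA1 (-0.77), with limma adjusted p-values of 0.407, 0.446 and 0.446. SAP30 had 180 and 276 in shLUC and 1110 and 242 in shKDM1A. MTA1 had 6648 and 6930 in shLUC and 2506 and 6344 in shKDM1A, so both changes came mostly from replicate 1. BRMS1 had 556 and 528 in shLUC and 408 and 406 in shKDM1A. CHD3, a NuRD remodeller, had a change of 0.55 in shSMARCA4 (limma adjusted p = 0.0895). Of 14 other deacetylases and corepressors, 0 passed, with a median of -0.15 in shKDM1A, and HDAC8 (-0.34), HDAC3 (-0.24) and HDAC5 (-0.32) had the smallest p-values there. HDAC5 had 2628 and 2607 in shLUC and 1644 and 2690 in shKDM1A. HDAC7 had the smallest in shSMARCA4 (-0.39, limma adjusted p = 0.296).

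Of 17 H3K4 methyltransferase and demethylase genes, 0 passed, again near the shares of all rows, with a median of 0.03 in shKDM1A. DPY30 (-0.43), KDM2B (0.30) and SETD1B (0.27) had the smallest p-values there. DPY30 had 1644 and 1543 in shLUC and 901 and 1552 in shKDM1A. SETD1B, a methyltransferase of H3 lysine 4, had the smallest p-value of that list in the other 3 knockdowns, with log2 changes of 0.62 in shSMARCA4, 0.80 in shMAFK and 0.47 in shE2F6. None passed, the limma adjusted p-values being 0.0912, 0.158 and 0.925. SETD1A had the smallest against the other 3 knockdowns (-0.49, limma adjusted p = 0.152).

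**Figure D4:**
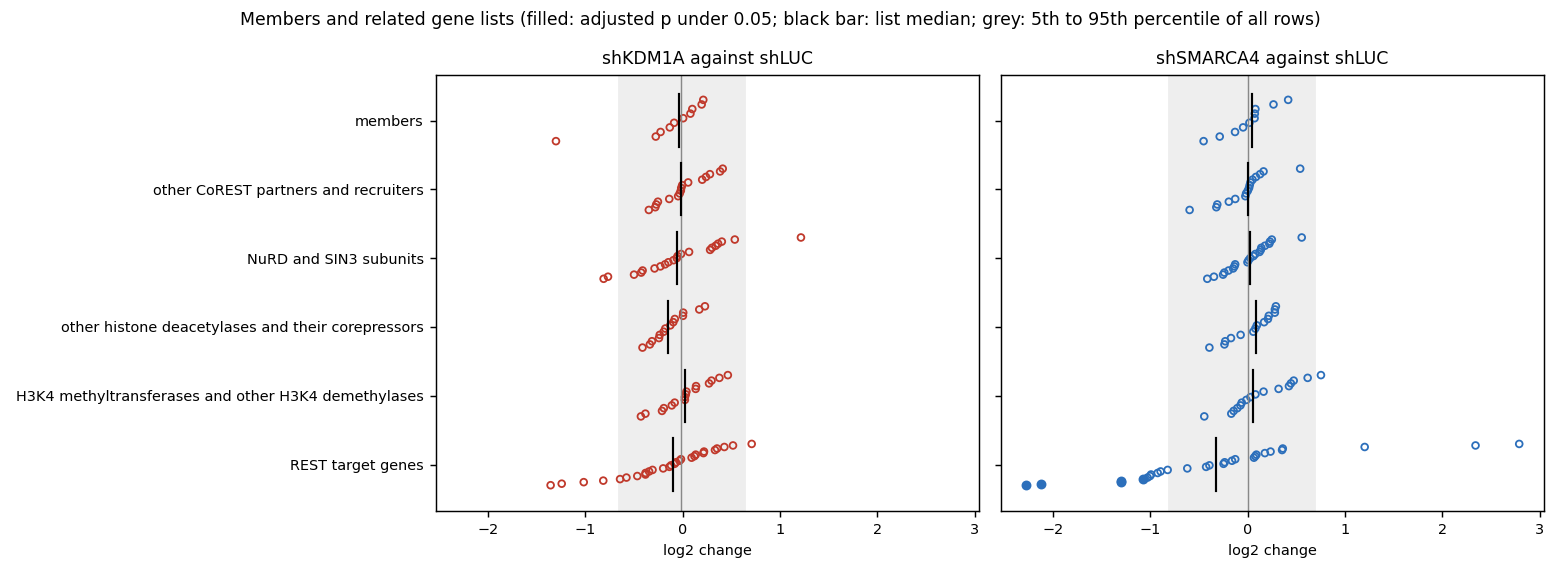
Log2 changes against shLUC in shKDM1A (left) and shSMARCA4 (right) for the members and the 5 lists, 1 circle per gene, ordered by value within a list. Filled circles passed the threshold, black bars are list medians and the grey band spans the 5th to 95th percentile of all rows; the filled circles are 5 REST target genes in shSMARCA4.

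REST targets are neuronal genes at which REST, CoREST and KDM1A are known to act together. Of 36 listed genes 28 were in the table. In shKDM1A 0 of 28 passed by limma, where 0.0271% of all rows passed. An unadjusted p under 0.05 was found for 3 of 28, all of them lower. That is near the share of all rows, 11.5%. The median log2 change was -0.10 against -0.02 over all rows. The lowest 3 p-values belonged to TUBB3, a neuronal tubulin (5536 and 3264 in shLUC, 1215 and 2266 in shKDM1A, log2 change -1.36, adjusted p = 0.231), the splicing factor SRRM4 (-1.24, adjusted p = 0.372) and STMN2, a neuronal microtubule regulator (-0.58, adjusted p = 0.407).

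In shSMARCA4 5 of the 28 fell and 0 rose, while 2.51% of all rows fell. STMN2 had 198 and 249 in shLUC and 45 in both shSMARCA4 libraries (log2 change -2.28, limma adjusted p = 0.00127). CHGA, a granule protein of neuroendocrine cells, had 346 in both shLUC libraries and 79 and 78 in shSMARCA4 (-2.13, limma adjusted p = 0.0320). STMN3 (-1.30), SCG2 (-1.30) and SYT4 (-1.08) were the others, with limma adjusted p-values of 0.0394, 0.0427 and 0.0364. The median of the list was -0.32 against 0.01 over all rows. Over all rows 16.3% had an unadjusted p under 0.05 in either direction. Of the 28, 10 were lower and 3 higher at that level. The higher ones were MAPK8IP2, a kinase scaffold (36 and 29 in shLUC, 118 and 238 in shSMARCA4, limma adjusted p = 0.0711), the adhesion molecule L1CAM (1222 and 1293, 2354 and 3552, limma adjusted p = 0.101) and CELSR3 (limma adjusted p = 0.302), named here after their values were seen. Leaving out 1 library changed the count to between 1 and 9, and it was 1 without either library of shLUC, shSMARCA4 or shMAFK.

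In the same comparison the log2 change was 0.02 for REST, -0.05 for KDM1A and 0.02 for RCOR1, none of which passed. The 12 pluripotency markers summed to 163987 to 186604 in shSMARCA4 against 191045 to 200406 in shLUC. Of them 0 passed by limma, where 4.18% of all rows passed. An unadjusted p under 0.05 was found for 3 lower and 1 higher (16.3% of rows). Markers of other cell types did differ in the same libraries. The summed value of MIXL1 and EOMES, the 2 of 5 mesendoderm markers in the table, was 856 to 4239 in shSMARCA4 and 34 to 48 in shLUC. FOXA2, the 1 of 4 endoderm markers, was at 170 to 792 against 2 to 4. The 4 of 7 fibroblast markers in the table summed to 6634 to 7613 against 17576 to 18654. KRT7, the 1 of 6 trophoblast markers, was at 30 to 44 against 218 to 296. NES and MAP2, the 2 of 6 neural markers, summed to 3909 to 6609 against 5611 to 6512. MAP2 alone was above both control libraries, with 466 and 741 against 311 and 369. NES had 6143 and 3168 against 5300 and 6143. In shKDM1A the fibroblast markers summed to 19325 to 31004, and COL1A2 among them had 13159 and 3474. NES had 10757 and 5026 and MAP2 176 and 316 in shKDM1A. MIXL1 and EOMES summed there to 24 to 34, FOXA2 was at 0 to 1 and KRT7 at 172 to 360. By limma 0 of the 4 fibroblast markers passed in shKDM1A against shLUC. Against the other 3 knockdowns 1 passed, higher, where 0.649% of all rows passed. The part of these markers in the values of the members and REST targets was not tested.

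STMN2 was below both control libraries in all 4 knockdowns, which share those controls and where 1.86% of all rows showed the same. It had 162 and 136 in shKDM1A, 131 and 120 in shMAFK, and 96 and 88 in shE2F6. Its log2 changes were -0.82 in shMAFK and -1.26 in shE2F6, with limma adjusted p-values of 0.268 and 0.279. In shKDM1A its value was higher than in the other 3 knockdowns by 0.88 (limma adjusted p = 0.0773). Of the REST targets, STMN2 had the smallest p-value in shSMARCA4, shMAFK and shE2F6 against shLUC and in the comparison with the other 3 knockdowns. In shKDM1A against shLUC it came after TUBB3 and SRRM4.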

How the data were processed

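Per the labels, total RNA of H1 cells was made into NEB Next Ultra libraries and sequenced on an Illumina instrument. The submitters' processing notes list STAR, STARsolo and the build hg38, without versions or roles. The deposited values are whole-number scores, taken to be normalized tag counts, rounded by the authors, because medians are equal and totals nearly so across libraries. How the authors normalized them, and how reads were shared between paralogs or strands, is not given in the sources used here. Depth is unknown, so no interval for counting error is given.

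Groups and replicate numbers came from sample titles, and 0 columns of the table of single libraries were left unmapped. The authors' table of group means was not used. Values were analysed as log2(value + 1), a scale that compresses changes at low values. A minimum mean of 10 removed 0 rows. limma 3.58.1 in R 4.3.3 (two-sided, eBayes with the trend option) was fitted to all 10 libraries with 5 residual degrees of freedom. The code was also run on simulated data in which every group had the same spread. That run does not bear on the wider spread of the real shKDM1A libraries. Benjamini-Hochberg adjustment was over 14785 rows. The permutation test enumerated all splits of 2 against 8 libraries in Python 3.11.15; 2 against 2 cannot go below p = 0.333. Gene positions, exon lengths and transcript sequences are from GENCODE 29 (GRCh38).

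Named genes were all members, REST and the listed CoREST partners, the genes of each list past the threshold or with the smallest p (3 in shKDM1A, 1 elsewhere), and the 5 genes most like KDM1A; 1 listed partner is not reported here. The members and lists were chosen with earlier results of these data known. Alternatives covered the pseudocount, the filter, rescaling, quantile normalization, group weights, robust variances, the libraries in the fit, each library left out, and the replicate number as a block. The fit without a filter repeats the main fit, because the filter removed 0 rows. Quantile normalization left the log2 changes in shKDM1A against shLUC at -1.30 for KDM1A and -0.28 for KDM1B.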

Additional observations from a re-analysis of the deposited data

Results flagged for a closer look

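KDM1A differed between the 5 groups by limma's moderated F-test (F = 11.2, adjusted p = 0.0372), with both shKDM1A libraries below the 8 others.

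For 3 members, both libraries of 1 knockdown lay above both shLUC libraries and both libraries of another lay below them, a pattern that 23.0% of all rows showed. KDM1B was higher in shSMARCA4 (log2 change 0.42) and lower in shKDM1A (-0.28), a difference of 0.69. RCOR2 was higher in shKDM1A (0.21) and lower in shE2F6 (-0.37), a difference of 0.58. RCOR1 was higher in shKDM1A (0.19) and lower in shMAFK (-0.20), a difference of 0.39. These differences between 2 knockdowns were not tested directly. In limma's F-test over the 5 groups the 3 members had adjusted p-values of 0.115, 0.174 and 0.612 for KDM1B, RCOR2 and RCOR1.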

How the results depend on the processing

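The alternatives counted here include the fit without a filter, which repeats the main fit, so not every one is a separate check. No member passed in shSMARCA4, shMAFK or shE2F6 against shLUC under any alternative run. In shKDM1A against shLUC the count was 0, and 1 (KDM1A) without either shKDM1A library. The log2 change of KDM1A there ran from -1.71 to -0.90 when 1 library was left out. The rows that passed in that comparison numbered 4, 5 without shKDM1A replicate 1 and 3235 without replicate 2. The F-test count of 1 went to 0 without both shKDM1A libraries, and to between 0 and 2 when 1 library was left out. Against the other 3 knockdowns the count of 1 went to 0 with a separate weight for each group, and to between 0 and 2 when 1 library was left out. The exact test of KDM1A ran from -1.65 to -0.85 when 1 library was left out, at a smallest possible p of 0.0556 (2 against 7) or 0.222 (1 against 8). The other 9 members passed in 2 of 1098 tests under the alternatives, both KDM1B. The count of REST targets in shSMARCA4 (5) was 9 with a weight per group, 9 when neither shKDM1A library was used, 8 with only 2 groups in the fit, and 1 to 9 when 1 library was left out. The cause of these shifts was not tested.

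With the replicate number as a block, the count against the other 3 knockdowns was 0 (KDM1A adjusted p = 0.0519), and 62 and not 96 rows passed. It changed no other member count. Same-numbered libraries correlated from -0.05 to 0.34 over 10 pairs of groups, above 0.1 in 2, so the numbers were not taken to pair the libraries.

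Small changes of 21 results turned sign when 1 library was left out. The ranges were, in shKDM1A against shLUC, -0.12 to 0.32 (HDAC1), -0.12 to 0.13 (PHF21A), -0.19 to 0.018 (RCOR3) and -0.080 to 0.24 (ZMYM2). In shSMARCA4 they were -0.18 to 0.083 (KDM1A), -0.12 to 0.28 (PHF21A), -0.25 to 0.29 (RCOR1), -0.099 to 0.24 (RCOR3) and -0.089 to 0.23 (ZMYM2). In shMAFK they were -0.052 to 0.034 (KDM1B), -0.014 to 0.16 (PHF21A) and -0.024 to 0.090 (RCOR3). In shE2F6 they were -0.095 to 0.20 (HDAC1), -0.049 to 0.064 (KDM1A), -0.29 to 0.15 (PHF21A) and -0.16 to 0.16 (ZMYM2). Against the other 3 knockdowns they were -0.082 to 0.36 (HDAC1), -0.059 to 0.062 (HDAC2), -0.013 to 0.19 (HMG20B), -0.15 to 0.11 (PHF21A) and -0.21 to 0.0042 (RCOR3). HDAC2 there was -0.0073 with values rescaled to the same total over gene rows. None of these passed the threshold. Depth is unknown, so what it limits was not tested.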
